A study of Mus musculus with 4 samples.

Results

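Bone morphogenetic proteins (BMPs) are secreted growth factors of the TGF-β superfamily. A ligand dimer brings together type I and type II serine/threonine kinase receptors on the receiving cell, the type II receptor activates the type I receptor, and the type I receptor phosphorylates SMAD1, SMAD5 and SMAD9, which enter the nucleus with SMAD4 and switch on targets such as the Id genes. In salivary glands the pathway is best known from development, where ligands from the mesenchyme act on the branching epithelium, and in blood vessels BMP signalling through endothelial receptors is needed for a normal vessel wall. The 10 genes described here were chosen by name from the 31053 genes listed in the count tables. They are the ligands Bmp2, Bmp4, Bmp5, Bmp6 and Bmp7, the type I receptor Bmpr1a, the type II receptor Bmpr2, the secreted antagonist Grem1, and the target genes Id1 and Id3. All 10 were listed, and 9 of them had at least 1 UMI (a unique molecular identifier, which stands for 1 captured RNA molecule).

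The cells came from the submandibular glands of female C57BL6/J mice, and the labels' protocols also name sublingual glands. In the deligated group, mice 14 weeks old had the main duct closed with a metal clip for 14 days, which injures the gland, and the clip was then taken off for 5 days. The homeostatic group was of mice 12 weeks old with no surgery. In both groups dissociated glands were depleted of EpCAM-positive epithelium and Ter119-positive red cells with magnetic beads and of dead cells, so that stroma was enriched, and droplet single-cell RNA sequencing was run on 2 libraries of each group. The number of mice behind a library is not given in the sources used here, so a p-value measures the spread between these 4 libraries, which may be technical. Age also differs between the groups and cannot be told apart from the ligation and its release.

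The 4 tables held 39558 cell barcodes and 195574416 UMIs. Between 14 and 54 barcodes were shared by any pair of libraries, at most 0.482% of the smaller one. The median depth was 6075 and 5278 UMIs per barcode in deligated libraries 1 and 2, and 2912.5 and 2765.5 in homeostatic libraries 1 and 2. After filtering, 33695 cells remained in 35 clusters, and 5 classes had at least 100 cells in every library and were tested: endothelial-like (1872 to 3514 cells per library), fibroblast-like (275 to 747), mural-like, that is pericytes and vascular smooth muscle (101 to 455), NK/innate lymphoid-like (914 to 2113) and T cell-like (148 to 788). The defining markers matched the names of the endothelial-, fibroblast- and mural-like cells in all 4 libraries. Pecam1 stood at 1543 to 1693 UMIs per 1000000 UMIs of the class (CPM) in endothelial-like cells, Pdgfra at 1050 to 1414 CPM in fibroblast-like cells and Rgs5 at 5758 to 8425 CPM in mural-like cells. T cell-like cells had Cd3e at 531 to 825 CPM, against 6.4 to 12.7 CPM in NK/innate lymphoid-like cells. They also had the NK markers Ncr1 at 57.8 to 122 CPM and Gzma at 157 to 523 CPM. Cluster 8 of the T cell-like cells met 6 T cell and 7 NK/innate lymphoid markers, and cluster 23 met 7 and 6. Different clusters held most of a class in the 2 groups: cluster 9 (deligated) and cluster 18 (homeostatic) of the fibroblast-like cells, clusters 20 and 21 against cluster 27 of the mural-like cells, cluster 1 against cluster 0 of the capillary endothelial cells, cluster 3 against cluster 4 of the NK/innate lymphoid-like cells, and cluster 8 against cluster 23 of the T cell-like cells. A list of 13 epithelial markers summed to 4.30 to 25.0 CPM in the deligated and 107 to 237 CPM in the homeostatic libraries over endothelial-, fibroblast- and mural-like cells, and 9 to 13 of the 13 genes were detected in each class except for 7 in the mural-like cells of deligated library 1. The part of these epithelial transcripts in the results was not tested.

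Bmp4 and Bmp5 transcripts came mostly from fibroblast-like and from mural-like cells, and their promoters are shown as the regulatory sequence next to that readout. Among the ligands with a matched window, these are the 2 whose window lies outside the annotated gene, apart from its last base in Bmp5. Each run is the 250 bases upstream of the RefSeq start (build GRCm38.p6), 5′ to 3′ on the gene's strand, with every CG dinucleotide in capitals. The Bmp4 window is chr14:46390670-46390919 on the minus strand, and the Bmp5 window is chr9:75775115-75775364 on the plus strand.
Bmp4: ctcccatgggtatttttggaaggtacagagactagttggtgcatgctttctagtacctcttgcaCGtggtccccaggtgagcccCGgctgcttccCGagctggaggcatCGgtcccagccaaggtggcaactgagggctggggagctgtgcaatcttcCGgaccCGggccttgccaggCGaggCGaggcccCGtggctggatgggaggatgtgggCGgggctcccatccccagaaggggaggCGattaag
Bmp5: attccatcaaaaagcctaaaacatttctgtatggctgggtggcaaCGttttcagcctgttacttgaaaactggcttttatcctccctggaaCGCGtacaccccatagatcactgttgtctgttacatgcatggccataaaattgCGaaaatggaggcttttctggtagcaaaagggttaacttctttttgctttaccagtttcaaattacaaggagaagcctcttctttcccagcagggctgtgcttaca
The Bmp4 window holds 11 CG dinucleotides and 63.2% G and C, and the Bmp5 window 4 and 42.8%. Over 32851 mouse promoter windows of the same length the medians were 6 CG dinucleotides and 52.4%, and 66.5% of the windows had as few CG dinucleotides as Bmp4 or fewer, against 44.4% for Bmp5. The GC-rich motif bound by SMAD1 and SMAD5 was searched on both strands in its GGCGCC and GGAGCC forms. GGCGCC is in 9.59% of all windows and was found in those of Bmpr1a, Bmpr2 and Grem1. GGAGCC is in 26.0% of all windows and was found in those of Bmp4 and Id3. The windows of Bmpr1a, Bmpr2 and Id3 lie wholly inside the annotated gene, so the matches there are not upstream of every transcript. Of the 10 genes, 7 were matched to a window.

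Bmp4, a ligand that mesenchyme is known to make, was a fibroblast transcript in this stroma. Fibroblast-like cells held 84.4% and 90.5% of its UMIs in deligated libraries 1 and 2, and 70.6% and 76.7% in homeostatic libraries 1 and 2. Endothelial-like cells held 7.21% to 24.1%. The Bmp4 level in fibroblast-like cells was 130 and 191 CPM in the deligated libraries and 136 and 163 CPM in the homeostatic ones, from 616, 1243, 252 and 290 UMIs. The deligated range encloses the homeostatic one, and deligated library 2 is the highest of the 4. With every cell thinned to 1000 UMIs, which leaves out 1 to 22 fibroblast-like cells per library, 11.6% and 19.7% of deligated and 14.2% and 15.9% of homeostatic fibroblast-like cells had a Bmp4 UMI (65.7% and 64.1%, and 45.4% and 51.3%, before thinning). In T cell-like cells, which should lack Bmp4, the thinned share was 0% in 3 libraries and 1.86% in homeostatic library 2, at median depths of 4900 to 5194 UMIs against 6560 to 13040 in fibroblast-like cells. Mural-like cells had Bmp4 at 2.97 and 3.57 CPM in the deligated libraries. The homeostatic libraries had no Bmp4 UMI in mural-like cells, which allows up to 4.91 and 5.53 CPM, so a difference was not detectable at this depth. In Schwann-like cells (29 to 66 per library) the Bmp4 level was 70.4 and 23.98 CPM in deligated and 7.06 and 11.1 CPM in homeostatic libraries, but from 12, 8, 1 and 1 UMIs.

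Among the tested classes Bmp5 and Bmp2 were highest in mural-like cells. Bmp5, a ligand first known from a mouse skeletal mutant, had 60.7% to 74.3% of its UMIs in mural-like and 22.9% to 36.6% in fibroblast-like cells. Its level in mural-like cells was 27.6 and 27.0 CPM in the deligated and 58.9 and 47.9 CPM in the homeostatic libraries, from 65, 68, 36 and 26 UMIs, with no overlap between groups. In fibroblast-like cells it stood at 7.36, 6.30, 8.07 and 4.48 CPM, and the groups overlapped. Bmp2, a ligand known for inducing bone and acting on vessels, was at 39.5 and 49.2 CPM in deligated and 50.7 and 31.3 CPM in homeostatic mural-like cells. Fibroblast-like cells came next at 7.36 to 12.9 CPM and endothelial-like cells were at or below 3.31 CPM, with no overlap between neighbouring classes in either group. Mural-like cells held 54.1% and 39.6% of all Bmp2 UMIs in the deligated libraries and 28.4% and 19.1% in the homeostatic libraries, where they were also fewer.

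Bmp6, a ligand that endothelial cells are known to release and that signals iron stores to hepatocytes in the liver, came mainly from vessels. Endothelial-like cells held 75.9% and 74.3% of its UMIs in deligated and 93.5% and 93.0% in homeostatic libraries. Per UMI of the class its level in mural-like cells overlapped that in endothelial-like cells in both groups. No Bmp6 UMI was found in epithelial-like cells of any library, which in the homeostatic libraries (1790 and 1851 such cells) allows at most 0.361 and 0.396 CPM, and none in T cell-like cells.

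Bmp7, a ligand best known for its need in kidney and eye development, had more than 1 source. Fibroblast-like cells held 29.7% to 46.4% of its UMIs. Their level was 6.31 and 15.1 CPM in deligated and 21.5 and 19.1 CPM in homeostatic libraries. T cell-like cells, at 8.72 to 13.7 CPM, overlapped the fibroblast-like range in the deligated group and lay under it in the homeostatic group. A cluster with no class name, led by Il1rl1 and Areg, stood at 53.6 CPM in deligated library 2 and at 58.1 and 98.4 CPM in homeostatic libraries 1 and 2. The same cluster had Bmp2 at 43.7, 37.2 and 39.9 CPM, close to mural-like cells. Deligated library 1 had 48 of its cells and is not given, since levels of a cluster were computed from 50 cells up. Lymphatic endothelial-like cells (14 to 25 per library) had Bmp7 at 29.5 and 7.65 CPM in deligated and 73.3 and 10.3 CPM in homeostatic libraries, from 8, 1, 16 and 1 UMIs. The cluster behind this name met 6 lymphatic and 8 epithelial markers, with Igfbp2 and Krt14 among its leading genes. Finer clustering gave 31 lymphatic endothelial-like cells and an epithelial-like cluster of 45 cells with Igfbp2 and Krt14 among its leading genes. Values under the lymphatic name are thus of a mixed cluster.

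**Figure D1:**
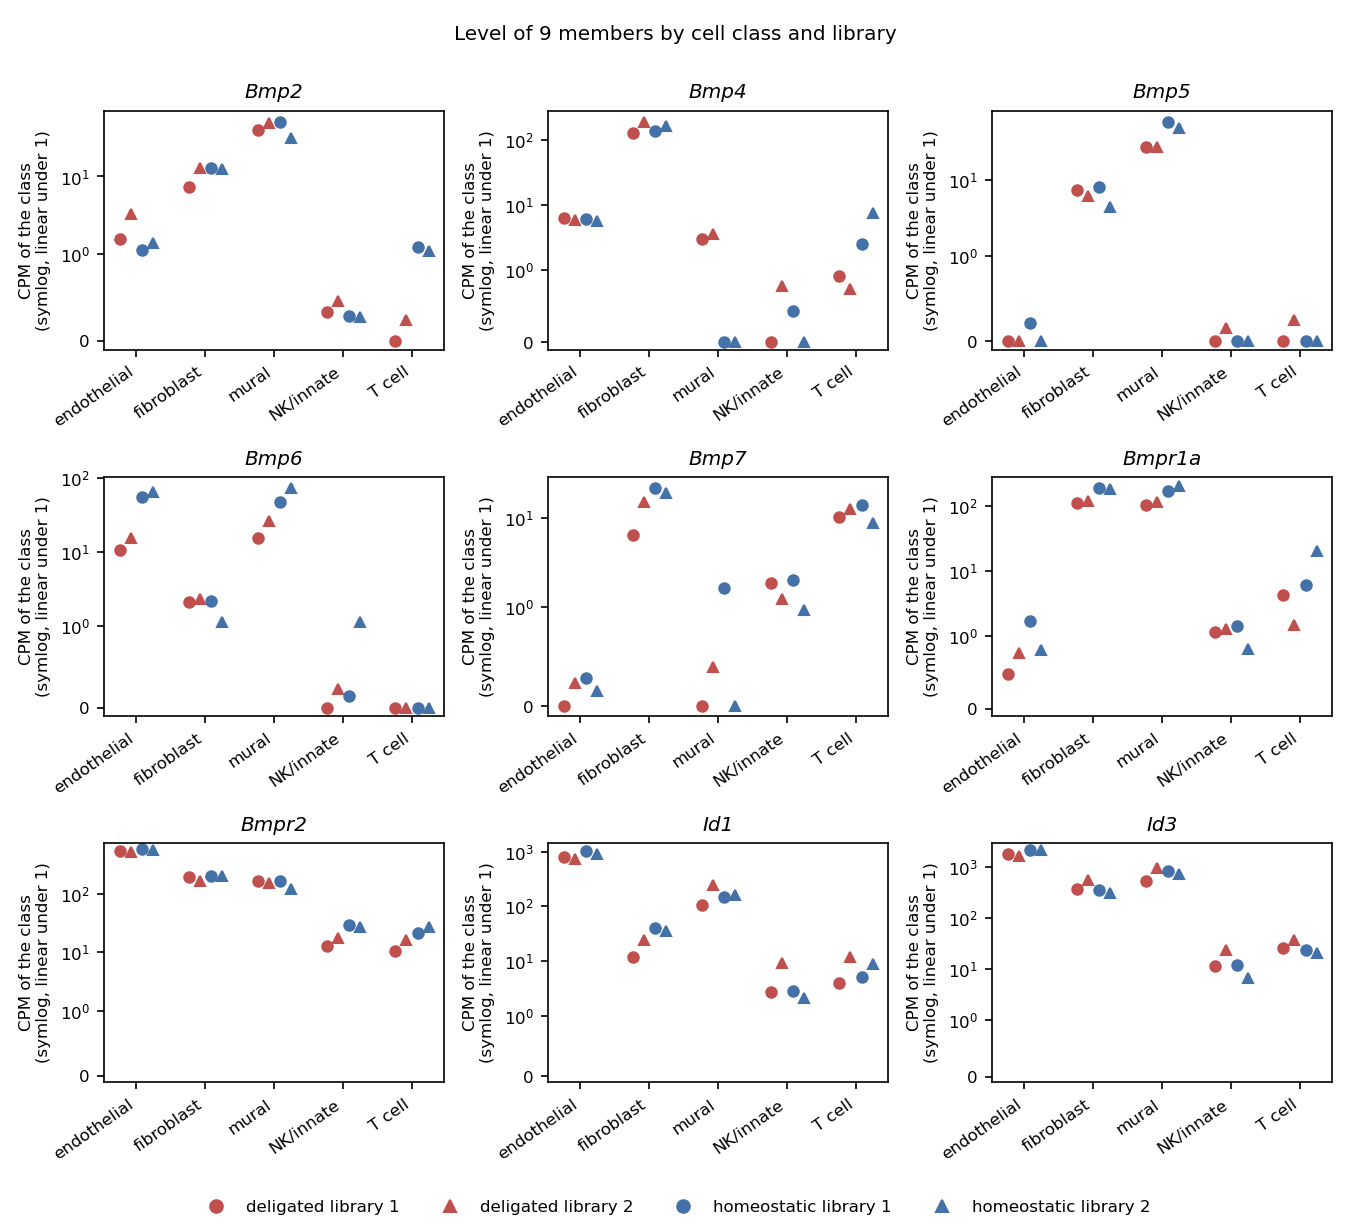
Level of 9 of the 10 genes (CPM of the class, symlog axis that is linear under 1) in the 5 tested classes, 1 point per library. Bmp4 is highest in fibroblast-like, Bmp2 and Bmp5 in mural-like, and Id1, Id3 and Bmpr2 in endothelial-like cells in all 4 libraries.

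Grem1, which binds BMP2, BMP4 and BMP7 outside the cell and blocks them, was not detected. It had 0 UMIs in all 39558 barcodes, which over 195574416 UMIs allows a level of up to 0.0153 CPM (3 counts; counting error only). It shared this with 6896 of the 31053 listed genes (22.2%). The limit is over the UMIs of all barcodes and is less tight within any 1 class. Fibroblast-like cells, for example, held 1858635 and 1784416 UMIs in homeostatic libraries 1 and 2. No group difference of Grem1 can therefore be measured at this depth.

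Both receptors were found in fibroblast- and mural-like cells, and in endothelial-like cells Bmpr2 was high and Bmpr1a near 0. Bmpr1a, a type I receptor that binds BMP2 and BMP4, was at 110 and 121 CPM in deligated and 191 and 184 CPM in homeostatic fibroblast-like cells. In mural-like cells it was at 105 and 114 CPM, and 173 and 201 CPM. Levels in these 2 classes overlapped within each group. In endothelial-like cells Bmpr1a was at 0.486 to 1.70 CPM, below its level in T cell-like cells of the same library (1.48 to 20.7 CPM). After thinning, 0% to 0.162% of endothelial-like cells had a UMI of it (0.318% to 0.655% before). Fibroblast- and mural-like cells together held most Bmpr1a UMIs, with shares of 49.5% to 67.7% and 14.8% to 29.0%. Schwann-like cells had 84.8 to 122 CPM from 11 to 32 UMIs and lymphatic endothelial-like cells 76.5 to 151 CPM from 10 to 33 UMIs, too few cells to test. The lymphatic endothelial-like cluster also met 8 epithelial markers, so its Bmpr1a level may not be of lymphatic cells alone. Bmpr2, the type II receptor whose loss of function is known from heritable pulmonary arterial hypertension, was an endothelial gene here. Endothelial-like cells held 80.6% to 86.3% of its UMIs, at 543 and 509 CPM in deligated and 591 and 562 CPM in homeostatic libraries. Fibroblast-like cells followed at 168 to 201 CPM and mural-like cells at 122 to 165 CPM, without overlap in either group.

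The targets marked endothelial-like cells most strongly. Id1 and Id3 encode helix-loop-helix proteins without a DNA-binding part that hold back other transcription factors, and both are direct targets of SMAD1 and SMAD5. Endothelial-like cells held 91.4% to 96.3% of Id1 and 78.9% to 91.9% of Id3 UMIs. Id1 was at 810 and 752 CPM in deligated and 1046 and 926 CPM in homeostatic endothelial-like cells, and at 105 to 243 CPM in mural-like cells. Fibroblast-like cells had 11.8 and 23.8 CPM of Id1 in deligated and 39.8 and 35.3 CPM in homeostatic libraries. Id3 was at 1773 and 1631 CPM, and 2134 and 2095 CPM, in endothelial-like cells, at 533 to 959 CPM in mural-like cells and at 311 to 556 CPM in fibroblast-like cells. After thinning, 70.5% to 81.8% of endothelial-like cells had an Id3 UMI and 44.6% to 56.6% an Id1 UMI (92.1% to 95.3% and 78.0% to 86.2% before, with 17 to 82 cells left out). In T cell-like cells the thinned shares were 0.676% to 4.19% for Id3 and 0% to 1.02% for Id1. Epithelial-like cells of the homeostatic libraries, which are those left after the depletion, had Id3 at 8.19 and 8.18 CPM and Id1 at 3.01 and 5.67 CPM. T cell-like cells had Id3 at 20.7 to 35.9 CPM and Id1 at 3.98 to 12.0 CPM.

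**Figure D2:**
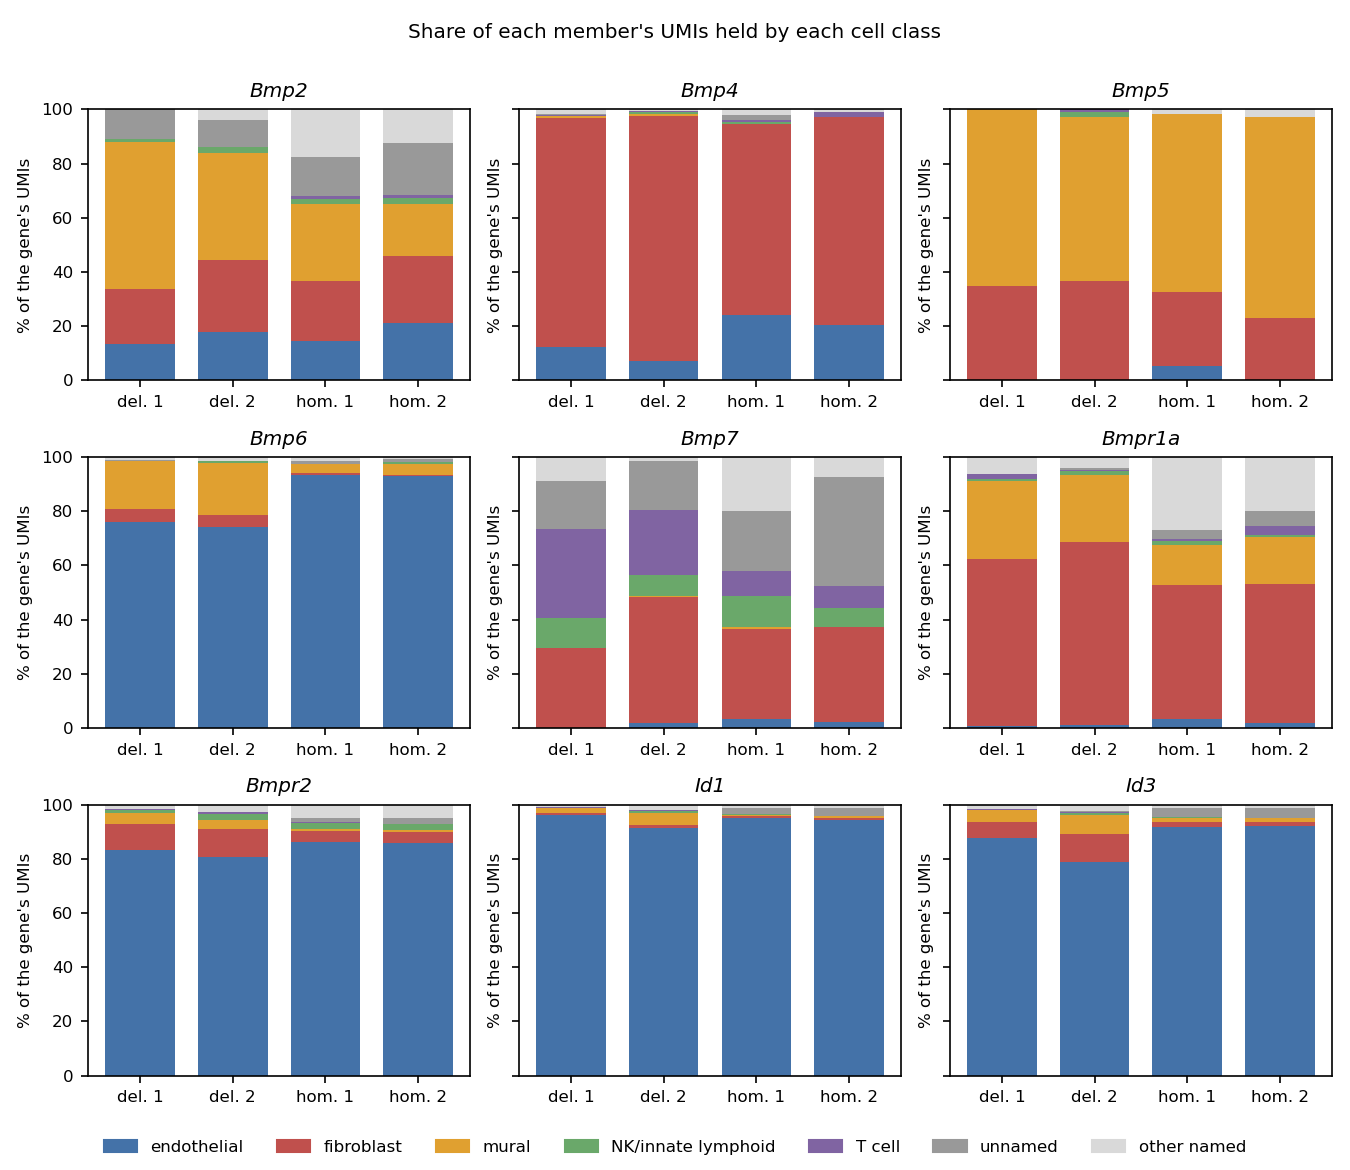
Share of each gene's UMIs (percent of its UMIs in retained cells) held by each cell class, 1 stacked bar per library. Fibroblast-like cells hold 70.6% to 90.5% of Bmp4 and endothelial-like cells 74.3% to 93.5% of Bmp6.

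Set side by side, fibroblast-like cells had Bmp4 with both receptors, mural-like cells had Bmp2, Bmp5 and Bmp6 with both receptors, and endothelial-like cells had Bmp6 and Bmpr2 with the highest Id1 and Id3. Clusters were built from the same cells, with these 10 genes and the other genes of the pathway list left out of the genes used for clustering, so the differences between classes are descriptions with no test. Transcript levels do not measure ligand protein or receptor activity.

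Genes with a pattern over cells most like that of each member were taken from the correlation of log2(CPM + 1) over 27 sums of a class in a library (8 classes). These points share libraries, depth and class make-up, so no p-value is given. For Bmp4 these were Ptgfrn (Pearson's r = 0.957), Gxylt2 and the collagen gene Col12a1. Bmp5 was most like Rem1 (0.985) and Carmn, a long noncoding RNA of smooth muscle. Bmp2 was most like Iah1 (0.949), Aoc3 and Ndufa4l2. Bmp6 was most like Ttll7 (0.949), Galnt18 and Oaz2, and Bmp7 like Espn (0.930), Plac8 and Cdon. The receptors were most like Sobp (0.965), Pard3 and Khdrbs3 for Bmpr1a and Ppfibp1 (0.969), Calcrl and Tcf4 for Bmpr2. Id1 was most like Efnb2 (0.968), an ephrin of arterial endothelium, with Dysf and Adgrl2, and Id3 like Timp3 (0.984), Igfbp7 and Jam3.

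The comparison of deligated with homeostatic libraries asks how these genes stand 5 days after the duct was reopened. UMIs were summed per class and library and tested with edgeR's quasi-likelihood test, with p-values adjusted by Benjamini-Hochberg over all genes tested in the class and a threshold of 0.05. A count filter kept 31 pairs of member and class, and 9 of these passed the test, 7 lower and 2 higher in deligated libraries. Many other genes passed as well. In endothelial-like cells 1 of 7 members passed, as lower (not kept by the filter: Bmp5, Bmp7, Grem1), beside 35.3% of all tested genes (22.5% lower, 12.8% higher). In fibroblast-like cells 3 of 8 members passed, 2 lower and 1 higher (not kept: Bmp6, Grem1), beside 25.3% of all genes (17.2% lower, 8.09% higher). In mural-like cells 3 of 7 passed, all lower (not kept: Bmp4, Bmp7, Grem1), beside 8.59% of all genes (6.98% lower, 1.61% higher). In NK/innate lymphoid-like cells 2 of 4 passed, 1 lower and 1 higher (kept: Bmp7, Bmpr2, Id1, Id3), beside 43.0% of all genes (26.7% lower, 16.4% higher). In T cell-like cells 0 of 5 passed (kept: the same 4 with Bmpr1a), beside 17.7% of all genes (13.2% lower, 4.42% higher). In T cell-like cells 1 member had an unadjusted p under 0.05 by edgeR, and DESeq2 called 0. The median log2 fold change of the members kept in endothelial-like cells was -0.30 (all tested genes -0.0031), in fibroblast-like cells -0.17 (all 0.0049) and in mural-like cells -0.07 (all 0.01). It was 0.56 over the 4 members kept in NK/innate lymphoid-like cells (all 0.01) and 0.14 over the 5 kept in T cell-like cells (all 0.03).

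**Figure D3:**
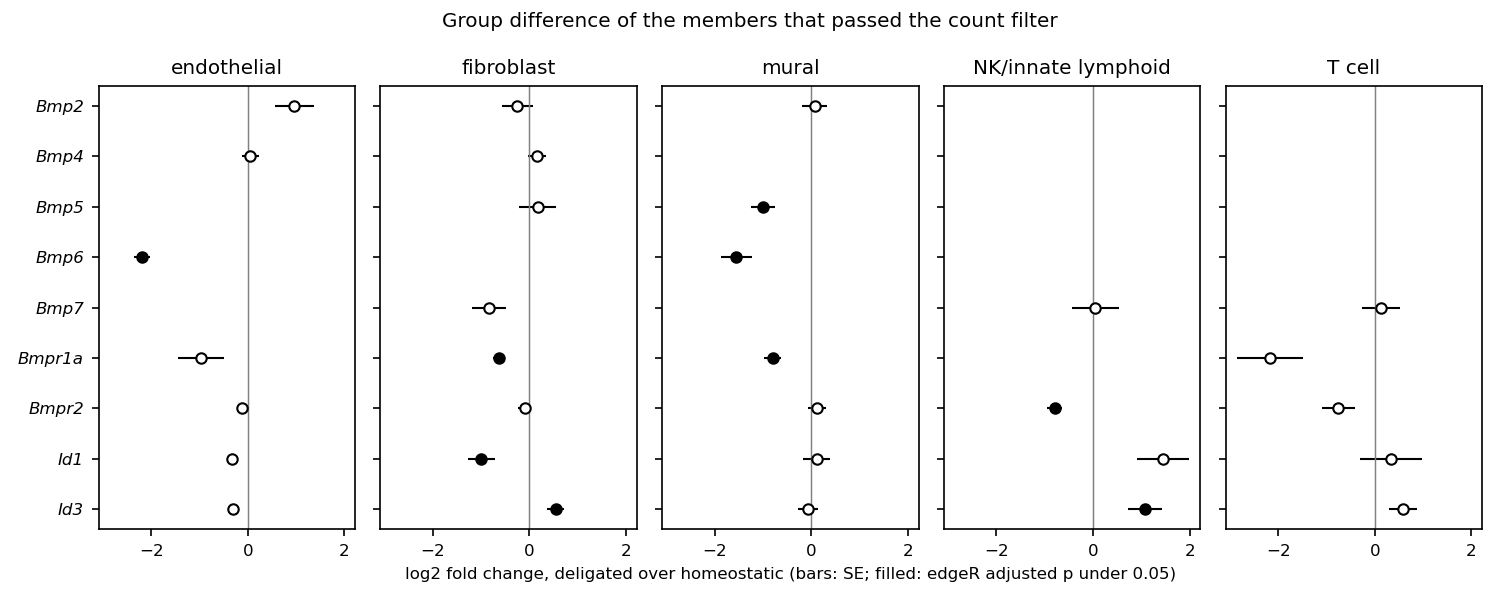
Log2 fold change (deligated over homeostatic; bars are SE) of the members that passed the count filter in each of 5 classes; filled points have an edgeR adjusted p under 0.05. The lowest point is Bmp6 in endothelial-like cells at -2.19.

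Bmp6 in endothelial-like cells fell the furthest of the members that passed. Its level was 10.7 and 15.3 CPM in deligated libraries 1 and 2 and 55.2 and 64.6 CPM in homeostatic libraries 1 and 2, from 154, 260, 778 and 880 UMIs. Both homeostatic libraries lie well above both deligated ones. The log2 fold change was -2.19 (SE 0.16, edgeR adjusted p = 0.00022), which is 4.55-fold lower. A thinned share of 0.916% and 1.49% of deligated and 4.49% and 5.13% of homeostatic endothelial-like cells had a Bmp6 UMI (6.68% and 6.24%, and 12.0% and 13.0%, before thinning, at median depths of 5890, 4421, 3614 and 3610 UMIs), against 0% of T cell-like cells. Under all 12 alternatives Bmp6 kept its direction and passed, with log2 fold changes from -2.40 to -1.52 and adjusted p-values from 7.25e-71 to 0.00153. The lower Bmp6 was seen in both larger endothelial subsets. Arterial clusters, named from Gja5, Bmx, Sema3g and related markers, had 28.1 and 52.0 CPM in deligated and 214 and 287 CPM in homeostatic libraries (-2.66 on the log2 scale, SE 0.22, edgeR adjusted p = 8.73e-06). Capillary clusters had 8.30 and 11.2 CPM, and 36.8 and 40.1 CPM (-1.96, SE 0.14, edgeR adjusted p = 0.000167). These subsets were tested as an addition after seeing the data. In arterial cells 2 of 6 members passed, both lower, beside 16.1% of all genes (11.1% lower, 5.02% higher). In capillary cells 1 of 5 passed, as lower, beside 33.6% of all genes (21.1% lower, 12.5% higher). Arterial cells of the homeostatic libraries fell mostly in a cluster of their own (320 and 276 cells), but 89 cells of each shared a cluster with the deligated ones. Within that shared cluster Bmp6 stood at 28.1 and 52.0 CPM in deligated and 175 and 115 CPM in homeostatic libraries, the latter from 23 and 16 UMIs. Venous cells (72 to 295 per library, not tested) had 4.29 and 2.26 CPM, and 23.2 and 27.9 CPM.

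Bmp6 also fell in mural-like cells. It was at 15.3 and 26.6 CPM in deligated and 47.4 and 73.7 CPM in homeostatic libraries, from 36, 67, 29 and 40 UMIs, and the groups did not overlap. The log2 fold change was -1.55 (SE 0.31, edgeR adjusted p = 0.00444). Within the deligated mural-like cells Bmp6 sat in the cluster led by the smooth muscle genes Tagln and Myh11 (23.97 and 43.2 CPM), and the cluster led by the pericyte genes Kcnj8 and Abcc9 had 1.12 and 1.01 CPM. The homeostatic mural-like cells were not split in this way, and their main cluster had 52.1 and 74.1 CPM. The summed smooth muscle markers were 12490 and 10910 CPM in deligated and 11870 and 13240 CPM in homeostatic mural-like cells, with overlapping groups. The call was lost without homeostatic library 2 (-1.17) and with the intron-length trend removed (-0.95).

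Bmp5 fell in the same mural-like cells, where its values are given above (log2 fold change -0.999, SE 0.25, edgeR adjusted p = 0.0202). This call held under 6 of 12 alternatives and not under DESeq2, the stricter cell filter, the finer clustering, removal of the intron-length trend or without either homeostatic library (adjusted p from 0.00416 to 0.302). The stricter filter left only 67 and 30 mural-like cells in homeostatic libraries 1 and 2. The log2 fold change was -0.99 under DESeq2, -1.08 with the stricter filter, and -0.87 and -1.10 without homeostatic library 1 and 2. It was -0.80 with the finer clustering, where the mural-like class also took in a cluster led by the epithelial keratins Krt5 and Krt14 that held 20 and 17 of its 334 and 457 deligated cells and 85 and 74 of its 200 and 159 homeostatic cells. With the trend removed it was -0.52. In fibroblast-like cells Bmp5 did not pass (0.17, SE 0.39). Bmp2 passed in no tested class. Its log2 fold changes were 0.07 (mural-like, SE 0.27), -0.25 (fibroblast-like, SE 0.32) and 0.97 (endothelial-like, SE 0.41). In endothelial-like cells the level was 1.60 and 3.31 CPM against 1.13 and 1.40 CPM.

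Bmp4 did not pass in fibroblast-like cells, its main source (log2 fold change 0.16, SE 0.18, edgeR adjusted p = 0.561), nor in endothelial-like cells (0.05, SE 0.18, edgeR adjusted p = 0.837). The endothelial value combines subsets that differ. Arterial cells had Bmp4 at 4.09 and 7.27 CPM in deligated and 16.3 and 12.9 CPM in homeostatic libraries, from 8, 13, 25 and 18 UMIs, and the groups did not overlap. It fell there (-1.37, SE 0.38, edgeR adjusted p = 0.0298), but the call was lost under DESeq2, without deligated library 1 and without homeostatic library 1 (adjusted p from 0.0113 to 0.264 over 10 alternatives). Venous cells had the highest Bmp4 of the subsets, 90.1 and 117 CPM in deligated and 50.9 and 45.5 CPM in homeostatic libraries, untested because of the cell number. Their venous marker sum was 2104 and 2080 CPM against 1183 and 914 CPM, and their capillary marker sum was 566 and 646 CPM against 1544 and 1469 CPM, so the cells in these clusters also differed in subset markers between groups. Bmp7 in fibroblast-like cells was lower in both deligated libraries than in either homeostatic one and did not pass (-0.83, SE 0.35, edgeR adjusted p = 0.117). Without deligated library 2 it passed (-1.56), as it did with no count filter (-0.79) and with the replicate numbers crossed (-0.89), and without deligated library 1 it was at -0.40 and did not. Its log2 fold changes in T cell-like (0.14, SE 0.39) and NK/innate lymphoid-like cells (0.05, SE 0.49) did not pass either.

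**Figure D4:**
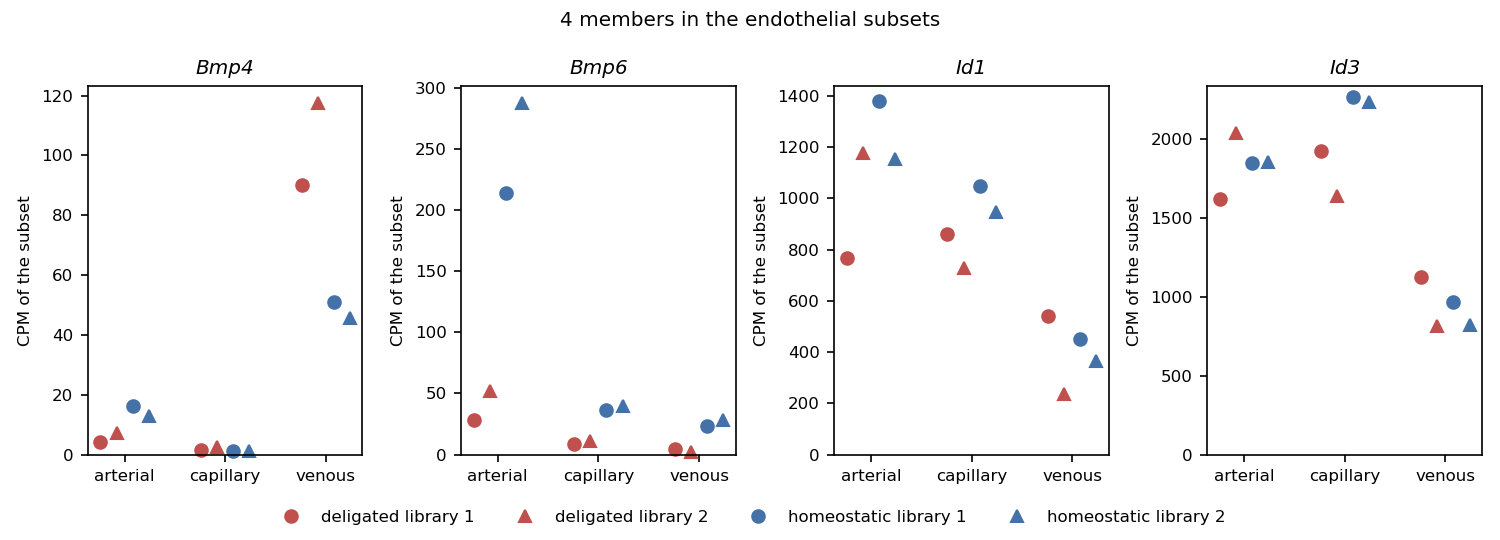
Bmp4, Bmp6, Id1 and Id3 (CPM of the subset, linear axis from 0) in arterial, capillary and venous endothelial cells, 1 point per library. Bmp6 in arterial cells is at 28.1 and 52.0 in deligated and 214 and 287 in homeostatic libraries, and Bmp4 is highest in venous cells of the deligated libraries.

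The receptor Bmpr1a fell in fibroblast-like and mural-like cells, the 2 tested classes where it was highest. In fibroblast-like cells, with 110 and 121 against 191 and 184 CPM, the log2 fold change was -0.63 (SE 0.13, edgeR adjusted p = 0.00504). In mural-like cells, with 105 and 114 against 173 and 201 CPM, it was -0.80 (SE 0.18, edgeR adjusted p = 0.00928). The groups did not overlap in either class. After thinning, 9.42% and 11.4% of deligated and 14.5% and 17.7% of homeostatic fibroblast-like cells had a Bmpr1a UMI, and 8.75% and 8.60% against 20.3% and 20.0% of mural-like cells (71.8%, 57.3%, 67.7% and 66.5%, and 45.4%, 41.5%, 46.9% and 61.4%, before thinning). Each call was lost in 3 of 12 alternatives. The fibroblast call was lost without homeostatic library 1 and without homeostatic library 2, the mural call without homeostatic library 2 and with finer clustering, and both with the intron-length trend removed. The fibroblast value without those libraries was -0.63 and -0.65, close to the value over all 4. The mural value was -0.65 without homeostatic library 2, and -0.63 with the finer clustering and its added Krt5 and Krt14 cluster. With the trend removed the values were -0.14 and -0.48. In T cell-like cells Bmpr1a rested on 5 to 19 UMIs per library and did not pass (4.28 and 1.48 against 6.24 and 20.7 CPM; -2.17, SE 0.68). It passed as lower with no count filter (-2.09), with the replicate block (-2.15), with the numbers crossed (-2.07) and without deligated library 1 (-3.06), and stood at -1.04 without homeostatic library 2.

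Bmpr2 passed in none of the 3 classes where it is high. Its log2 fold changes were -0.12 (endothelial-like, SE 0.10), -0.10 (fibroblast-like, SE 0.14) and 0.11 (mural-like, SE 0.19). It fell in NK/innate lymphoid-like cells, where it was at 12.8 and 17.6 CPM in deligated and 29.6 and 26.8 CPM in homeostatic libraries without overlap (-0.79, SE 0.16, edgeR adjusted p = 0.00605). That value was 0.018 and did not pass once the intron-length trend was removed, and fibroblast-like Bmpr2 then passed as higher (0.47).

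Of the targets, Id1 and Id3 in endothelial-like cells were lower in both deligated libraries than in either homeostatic one and missed the threshold, with Id1 at -0.32 on the log2 scale (SE 0.11, edgeR adjusted p = 0.0639) and Id3 with -0.30 (SE 0.10, edgeR adjusted p = 0.068). Both passed without deligated library 1 and without deligated library 2, fits in which 56.7% and 56.2% of all genes passed. Neither passed without homeostatic library 1 or without homeostatic library 2, where 15.9% and 15.8% of all genes did. Of the endothelial subsets, only capillary cells had both targets without overlap between groups. Their Id1 was at 862 and 729 CPM in deligated and 1048 and 946 CPM in homeostatic libraries. In arterial and in venous cells the groups overlapped for both targets. A cluster outside these subsets held 276 and 279 deligated and 4 and 4 homeostatic cells. Its deligated cells had Id1 at 438 and 360 CPM and Id3 at 699.3 and 752.5 CPM, and its part in the class values was not tested. In fibroblast-like cells the 2 targets went in opposite directions. Id1 fell (-0.996, SE 0.28, edgeR adjusted p = 0.0272, from 56, 155, 74 and 63 UMIs), and Id3 rose, from 348 and 311 CPM in homeostatic to 366 and 556 CPM in deligated libraries (0.54, SE 0.17, edgeR adjusted p = 0.0464). The Id3 groups were nearly touching, since deligated library 1 lay just above homeostatic library 1. Without deligated library 2 the Id3 value was 0.27, and the call was lost in 5 of 12 alternatives (adjusted p from 5.63e-08 to 0.465). The Id1 value ranged from -1.55 without deligated library 2 to -0.63 without deligated library 1, and its call was lost without homeostatic library 1 (-0.93). A list of 6 endothelial markers, from the class with the highest Id1, summed in fibroblast-like cells to 37.9 and 105 CPM in deligated and 59.7 and 25.2 CPM in homeostatic libraries, with overlapping groups. Neither target passed in mural-like cells, where the deligated libraries stood apart from each other (Id1 at 105 and 243 CPM, Id3 at 533 and 959 CPM) and enclosed both homeostatic values. In NK/innate lymphoid-like cells Id3 passed as higher (11.4 and 23.9 CPM against 11.8 and 6.52 CPM; 1.08, SE 0.36, edgeR adjusted p = 0.0439), but the groups overlapped, the levels are near the 8.18 and 8.19 CPM of epithelial-like cells, and the call was lost in 5 of 12 alternatives, among them no count filter, the trend removal and the fits without deligated library 2 (0.42) and without homeostatic library 2 (0.71). Id1 in these cells (2.69 and 9.35 CPM against 2.88 and 2.08 CPM) did not pass (1.44, SE 0.54). It passed as higher with the finer clustering (1.62), with the replicate numbers crossed (1.30) and without deligated library 1 (1.96), and stood at 0.22 without deligated library 2. Neither target passed in T cell-like cells (0.34, SE 0.64, for Id1 and 0.58, SE 0.29, for Id3).

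Most lower calls concern genes with long introns, and the group difference moved with intron length over all genes. The deligated libraries were counted with Cell Ranger 6.0.1 and the homeostatic libraries with 7.0.0 per the file headers, so software version cannot be told apart from group. The newer version is known to count intronic reads by default and the older one is not; which setting was used is not given in the sources used here. In endothelial-like cells the median log2 fold change of all genes was 0.22 for introns of at most 2 kb in sum, -0.24 for 50 to 100 kb, -0.57 for 100 to 200 kb and -1.43 above 200 kb. In fibroblast-like cells these medians were 0.30, -0.34, -0.66 and -1.59, and in mural-like cells 0.17, -0.19, -0.49 and -1.18. Bmp6 has 151 kb of introns, Bmp5 121 kb, Bmpr2 97.6 kb, Bmpr1a 86.3 kb and Bmp7 68.3 kb. The rest are short, with 7.17 kb for Bmp2, 4.90 kb for Bmp4, 0.468 kb for Id3 and 0 kb for Id1.

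With the trend on intron length removed, the endothelial Bmp6 call remained (log2 fold change -1.52), as did those in arterial (-2.05) and capillary cells (-1.34). Endothelial Id1 (-0.61) and Id3 (-0.51) then passed as lower, and fibroblast Id1 passed at -1.35. All 3 mural-like calls were lost, with Bmp6 at -0.95, Bmpr1a at -0.48 and Bmp5 at -0.52. Fibroblast Bmpr1a (-0.14) and Id3 (0.21) and the NK/innate lymphoid-like Bmpr2 (0.02) and Id3 (0.72) were lost too. Fibroblast Bmpr2, at -0.10 before, passed as higher at 0.47. Removing the trend also removes any true group difference that follows intron length.

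**Figure D5:**
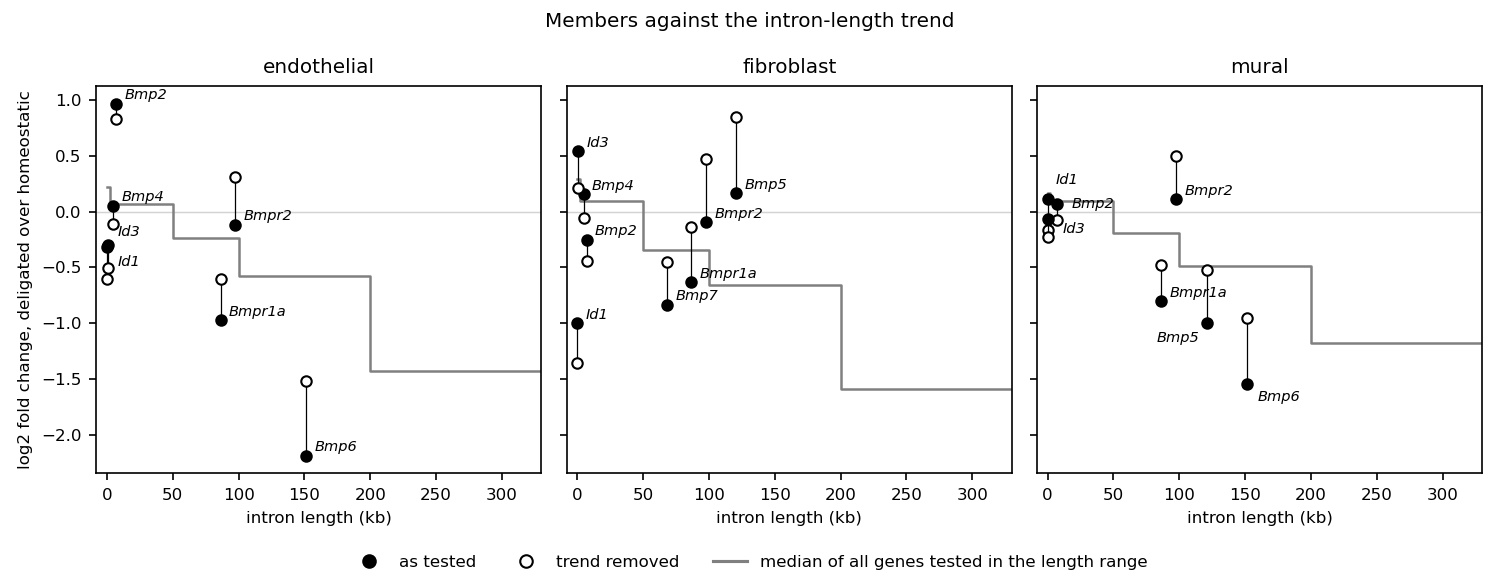
Log2 fold change (deligated over homeostatic) of each member against its summed intron length in kb, in 3 classes; filled points are as tested, open points have the trend removed, and the grey line is the median of all genes in each length range. Endothelial Bmp6 lies below the grey line, at -2.19 before and -1.52 after removal, and fibroblast Bmpr1a moves from -0.63 to -0.14.

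Whether a member changed differently between classes was tested in 1 fit with terms for library, class and class by group. Between fibroblast- and endothelial-like cells 3.10% of all genes differed, and 1 of 9 members, Bmp6, was called. Fibroblast-like Bmp6 was not kept by the count filter of its own class and entered this fit through the other classes, so nothing is read from the call. Its difference of log2 fold changes was 2.62 (SE 0.65, edgeR adjusted p = 0.0372), with fibroblast-like cells at 2.10 and 2.31 CPM in deligated and 2.15 and 1.12 CPM in homeostatic libraries from only 10, 15, 4 and 2 UMIs. The call was lost under the stricter cell filter (2.44) and without homeostatic library 1 (3.40) or 2 (2.23). For Id3, which rose in fibroblast-like cells, the difference from endothelial-like cells was 0.77 (edgeR adjusted p = 0.142) and did not pass. Between mural- and endothelial-like cells 0 of 9 members differed by edgeR (1 at an unadjusted p under 0.05), with 0.440% of all genes called, and Bmp6 differed by 0.68 (edgeR adjusted p = 0.550). Between fibroblast- and mural-like cells 0 of 9 did (2 at an unadjusted p under 0.05), with 0.551% of genes called. DESeq2 was not run on these differences.

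A list of 53 other genes of the pathway gives the setting of these changes. In fibroblast-like cells 35 were tested, 7 rose and 5 fell, beside 8.09% and 17.2% of all tested genes. Gdf10, a BMP3-like ligand, rose from 48.4 and 59.4 CPM in homeostatic to 222 and 152 CPM in deligated libraries, without overlap (log2 fold change 1.85, edgeR adjusted p = 0.000214). Tmem100, a target of endothelial BMP signalling, rose by 1.22 on the log2 scale and Chrd, which encodes the BMP antagonist chordin, by 1.09. The largest decreases were of the receptor Acvr2a (-1.17), the ubiquitin ligase Smurf2 (-1.09) and the co-receptor Tgfbr3 (-1.04). With the intron-length trend removed Gdf10 (1.69), Tmem100 (0.99), Acvr2a (-0.70) and Smurf2 (-0.55) still passed, and Chrd (0.84) and Tgfbr3 (-0.11) did not. With 1 library left out, 7 to 18 of the listed genes were called in fibroblast-like cells.

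In endothelial-like cells 34 of the 53 were tested, 4 rose and 9 fell, beside 12.8% and 22.5% of all tested genes. The largest rises were those of Smad5 (0.49), a BMP signal transducer, Twsg1 (0.43), an extracellular modulator, and Bambi (0.42), a decoy receptor. The largest decreases were those of Runx2 (-3.53), Smurf2 (-0.84) and the type I receptor Acvr1 (-0.63). Smad5, Twsg1, Runx2 and Smurf2 passed with the trend removed and Bambi and Acvr1 did not. In mural-like cells 29 were tested and 2 fell (6.98% of all genes did), Tgfbr3 (-0.90) and Smurf2 (-0.88), neither of which passed with the trend removed. With 1 library left out, 4 to 24 of these genes were called in endothelial-like cells, 0 of them higher when it was either homeostatic library, and 0 to 6 were called in the mural-like class. In NK/innate lymphoid-like cells 18 were tested, 3 rose (Bambi, Htra1 and Smad7) and 6 fell, beside 16.4% and 26.7% of all genes. In T cell-like cells 15 were tested, 2 rose (Smad7 and Id2) and 5 fell, beside 4.42% and 13.2%. In that class 2 and 3 were called without homeostatic library 1 and 2, 0 of them higher, and 3 with the trend removed. Without deligated library 1, 16 of 22 were called in NK/innate lymphoid-like cells. Smurf2 and Acvr2a fell in both lymphoid classes, also with the trend removed.

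On the mouse genome (GRCm38, GENCODE M21) Bmp6 lies at chr13:38345107-38500302 on the plus strand, Bmp5 at chr9:75775364-75900310 on the plus strand, Bmp4 at chr14:46383520-46390669 on the minus strand and Bmpr1a at chr14:34410734-34503341 on the minus strand. Bmp2 lies at chr2:133552159-133562885, Id1 at chr2:152736251-152737410, Id3 at chr4:136143497-136145755 and Bmpr2 at chr1:59763400-59879014, all on the plus strand. Grem1 is at chr2:113746164-113758646 and Bmp7 at chr2:172868012-172940321, both on the minus strand. None overlapped a gene on its own strand. Bmp4, Bmp5, Bmp6 and Bmpr1a each overlapped 1 or 2 genes on the other strand, and the sources used here do not state how strand was used in counting, so reads of those partners cannot be told apart from theirs.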

How the data were processed

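UMI counts per gene and cell barcode were deposited by the authors as 1 table per library, made with Cell Ranger (6.0.1 for deligated and 7.0.0 for homeostatic libraries per the file headers; the submitters' processing notes name Cell Ranger 6.0.1 for all, Seurat, and build mm10). Barcodes had been filtered before deposit. Whether intronic reads or strand were used in counting is not given in the sources used here. The members and lists described were chosen with earlier results of these data known.

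Cells with at least 300 genes and at most 10% mitochondrial UMIs were kept. Doublets were scored against simulated pairs of cells, and the top 0.8% per 1000 cells of each library were removed (164 to 1165 cells). Log counts per 10000 UMIs of the cell were then taken, and 3000 variable genes, without the members and the other pathway genes, gave 30 principal components and a 20-neighbour graph clustered by Leiden (leidenalg 0.10.2, resolution 1.0, Python 3.11.15). A cluster was named from at least 3 markers of a listed cell type, each detected in at least 10% of its cells and at least 2-fold above the median cluster. This scoring was set with the clusters in view, and 4 clusters stayed unnamed. A difference from the study's own cell types may come from these rebuilt names.

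UMIs were summed per class and library where all 4 libraries had at least 100 cells. The main test was edgeR 4.0.16 (R 4.3.3; TMM, filterByExpr, quasi-likelihood) with Benjamini-Hochberg adjustment over all genes of a class, and it was tested on simulated counts. The SE is the log2 fold change divided by the square root of the F statistic. Levels are CPM of the summed class counts. Shares of cells were compared after thinning to 1000 UMIs per cell. All 10 members were reported, and of the other pathway genes at most 3 per class with the largest increase and 3 with the largest decrease among those that passed. The 3 most correlated genes of each member were taken from genes with at least 500 UMIs, and 1 of them is not reported here. Intron lengths come from GENCODE M21, which matched 31011 of 31053 genes. The trend was a loess fit (span 0.5) of log2 fold change on intron length, used as a gene-wise offset. Alternatives were DESeq2 1.42.0, its size factors, no count filter, a stricter cell filter (1000 UMIs, 500 genes, 5% mitochondrial), Leiden resolution 2.0, replicate blocks, removal of the trend, and leaving out each library. Promoter windows of 250 bases are from RefSeq (GRCm38.p6).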

Additional observations from a re-analysis of the deposited data

Results flagged for a closer look

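The fit over all classes called Bmp6 as differing between 2 of them in its group difference, on few UMIs. The log2 fold change of deligated over homeostatic libraries was higher in fibroblast-like than in endothelial-like cells by 2.62 (SE 0.65, edgeR adjusted p = 0.0372, over 14532 genes tested), with 10, 15, 4 and 2 Bmp6 UMIs in the fibroblast-like cells of deligated libraries 1 and 2 and homeostatic libraries 1 and 2. Fibroblast-like Bmp6 did not pass the count filter of its own class, so its level there has no test of its own, and it entered the fit through the counts of the other classes. The call was lost under the stricter cell filter (2.44), without homeostatic library 1 (3.40) and without homeostatic library 2 (2.23), so nothing is read from it.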

How the results depend on the processing

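Scaling by DESeq2 size factors changed no call of a member, and endothelial, arterial and capillary Bmp6 passed as lower under every alternative run. Other calls of members depended on the setting. With the intron-length trend removed, the number of members called was 3 in endothelial-like, 3 in capillary, 0 in mural-like and 0 in NK/innate lymphoid-like cells (29.2%, 28.3%, 4.89% and 30.1% of all genes were called there), and all genes called were 481 in mural-like and 804 in T cell-like cells (846 and 1711 in the main analysis). With DESeq2 as the test, genes called were 1899 in fibroblast-like (2892 in the main analysis), 448 in mural-like, 1030 in T cell-like and 819 in arterial cells (1553 in the main analysis), with 1 member called in arterial cells. The stricter cell filter left 143 and 246 mural-like cells in the deligated and 67 and 30 in the homeostatic libraries, the latter under the 100 cells otherwise required. With the stricter cell filter, 540 genes and 1 member were called in mural-like cells, 0 members differed between fibroblast- and endothelial-like cells, and genes that differed were 27 between mural- and endothelial-like cells (64) and 11 between fibroblast- and mural-like cells (80). With Leiden resolution 2.0, 1 member was called in mural-like cells, and 305 and 506 genes differed in those comparisons. With no count filter, members called were 1 in NK/innate lymphoid-like cells, 2 in capillary cells and 1 in T cell-like cells, beside 18.7%, 24.5% and 14.8% of all genes.

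The deviations of replicates with the same number had correlations of -0.17 in endothelial-like, 0.01 in fibroblast-like, -0.04 in mural-like, -0.06 in T cell-like and -0.13 in NK/innate lymphoid-like cells. With 2 libraries per group these values cannot decide whether libraries of the same number belong together. With the replicate block, genes called were 4289, 2909, 1006, 1821 and 4312 in these classes, with 1 member called in each of the lymphoid classes: Id3 in NK/innate lymphoid-like cells no longer passed (1.02), and Bmpr1a in T cell-like cells did. With the replicate numbers crossed, an alternative chosen after seeing the data, genes called were 5251, 3251, 1205, 1909 and 5354, with 1 member called in T cell-like cells, 4, Bmp7 added, in fibroblast-like cells and 3, Id1 added, in NK/innate lymphoid-like cells.

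Directions that reversed were all of members that did not pass in the main analysis, except Bmpr2 in NK/innate lymphoid-like cells with the trend removed (0.018). The trend removal also reversed Bmpr2 in endothelial-like (0.31), fibroblast-like (0.47), arterial (0.25) and capillary cells (0.29), Bmp4 in endothelial-like (-0.11) and fibroblast-like cells (-0.060), Bmp2 (-0.079) and Id1 (-0.16) in mural-like cells and Id1 in T cell-like cells (-0.15). The stricter cell filter reversed Bmp4 in endothelial-like cells (-0.10), Bmp2 (-0.025), Bmpr2 (-0.23) and Id3 (0.12) in mural-like cells, and the Bmp6 difference between fibroblast- and mural-like cells (-0.21). Leiden resolution 2.0 reversed Id3 in mural-like cells (0.10).

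Leaving out 1 library leaves a group with a lone sample that is assumed to vary like the other group. Over these 4 fits, genes called ranged from 2140 to 7790 (endothelial-like), 1008 to 2290 (arterial), 1778 to 6978 (capillary), 1584 to 4145 (fibroblast-like), 359 to 944 (mural-like), 486 to 2520 (T cell-like) and 2813 to 6523 (NK/innate lymphoid-like). Members called ranged from 1 to 5, 1 to 3, 1 to 5, 0 to 4, 0 to 4, 0 to 2 and 1 to 3 in the same order. Other pathway genes called ranged from 4 to 24 in endothelial-like cells (13 in the main analysis) from 0 to 6 in mural-like cells (2), from 7 to 18 in fibroblast-like cells (12), from 2 to 8 in T cell-like cells (7) and from 8 to 16 in NK/innate lymphoid-like cells (9), and were 8 in endothelial-like cells with the trend removed (4 higher, 4 lower) and 6 in mural-like cells with the replicate block (3 higher, 3 lower). Genes that differed between classes ranged from 31 to 919 (fibroblast- and endothelial-like), 6 to 290 (mural- and endothelial-like) and 1 to 411 (fibroblast- and mural-like), and members from 0 to 3, 0 to 2 and 0 to 2. Log2 fold changes on both sides of 0 were found for Bmp2 in fibroblast-like (-0.66 to 0.040), mural-like (-0.19 to 0.44) and arterial cells (-0.43 to 0.59), Bmp4 in endothelial-like (-0.036 to 0.17) and fibroblast-like cells (-0.082 to 0.38), Bmp5 in fibroblast-like cells (-0.17 to 0.64), Bmp7 in T cell-like (-0.18 to 0.50) and NK/innate lymphoid-like cells (-0.34 to 0.66), Bmpr2 in fibroblast-like (-0.22 to 0.048) and mural-like cells (-0.050 to 0.32), Id1 in mural-like cells (-0.53 to 0.59) and Id3 in mural-like (-0.47 to 0.29) and arterial cells (-0.14 to 0.080). The T cell-like class was not run at Leiden resolution 2.0, which left too few homeostatic cells under that name. A cluster there with 210 and 219 homeostatic cells met 6 T cell markers and as many NK/innate lymphoid markers, so it stayed unnamed. The endothelial subsets were run with neither other clustering nor cell filter, and mural-like Bmp6 was not kept by the count filter under the stricter cell filter. Arterial Bmp4, fibroblast-like Bmp6 and T cell-like Bmpr1a rest on few UMIs.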
